A study of Mus musculus with 4 samples.

Results

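The genes of sugar uptake, glycolysis, pyruvate use, glycogen turnover and amino acid uptake were followed in naive CD4+ T cells with and without TACI. A fixed list of 39 genes was used: 12 plasma membrane transporters of glucose, lactate and amino acids, 25 enzymes, and 2 mitochondrial pyruvate carriers. Of these, 35 had a probe set that the platform annotation paired with their symbol alone, out of 22180 such genes on the array. Gpi1, Aldoa, Eno1 and Mpc2 were not analysed here. All 35 passed the filter on low values (2 or more arrays no lower than the 40th percentile of that array, which was 3.74 to 3.77 log2 units), among 13782 genes that did. The cells came from C57BL/6 mice of 2 genotypes, TACI-/- (2 arrays) and WT (2 arrays), sorted as CD4+ CD62L high CD44 low CD25- from spleen and lymph nodes that had been pooled. No treatment is recorded for either genotype, and how the TACI allele was made, the age of the mice and the number of mice in a pool are not given in the sources used here. TACI, the product of Tnfrsf13b, is a receptor for the cytokines BAFF and APRIL, best known from B cells.

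Resting naive T cells take up little glucose and burn it mainly in mitochondria. After antigen receptor and CD28 signals they place glucose and amino acid transporters on the surface, raise glycolytic enzymes and export lactate, and transporter supply is known to limit this switch. The largest differences between the genotypes lay in some of the transporter genes and in 1 glycogen enzyme gene. Slc16a1, Slc2a1 and Slc38a2, which carry lactate and pyruvate, glucose, and glutamine, had log2 fold changes of 0.95, 0.61 and 0.58 (TACI-/- minus WT), with all TACI-/- arrays above all WT arrays. The muscle-type glycogen phosphorylase gene Pygm had 1.14. The central glycolytic genes Gapdh, Pkm and Ldha had log2 fold changes of -0.01, 0.03 and -0.01. No member passed the threshold of the test across all genes (limma, Benjamini-Hochberg adjusted p under 0.05), where 0.138% of all genes passed.

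The stretches before the transcription start are shown for Slc16a1, Slc2a1, Slc38a2 and Pygm, which had the largest log2 fold changes of the members. Slc3a2, the heavy chain partner of Slc7a5, and Ldha, which did not separate the genotypes, are shown for comparison. Slc7a5 is named only. They are the 250 bases before the start in RefSeq (GRCm38.p6), read 5′ to 3′ on the strand of the gene. Capitals mark ACGTG on either strand, the core of the site bound by the hypoxia-inducible factor HIF1, which also lies inside the E-box CACGTG bound by Myc and its relatives. The windows lie at chr3:104638414-104638663 (plus strand) for Slc16a1, chr4:119108495-119108744 (plus) for Slc2a1, chr15:96699729-96699978 (minus) for Slc38a2, chr19:8713898-8714147 (minus) for Slc3a2, chr19:6384158-6384407 (plus) for Pygm and chr7:46845554-46845803 (plus) for Ldha.
Slc16a1: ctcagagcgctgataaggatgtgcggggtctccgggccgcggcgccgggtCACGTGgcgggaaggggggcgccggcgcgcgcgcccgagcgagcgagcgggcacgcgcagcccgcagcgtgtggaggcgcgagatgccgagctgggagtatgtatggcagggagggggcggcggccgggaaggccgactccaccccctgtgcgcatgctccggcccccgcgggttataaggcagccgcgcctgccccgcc
Slc2a1: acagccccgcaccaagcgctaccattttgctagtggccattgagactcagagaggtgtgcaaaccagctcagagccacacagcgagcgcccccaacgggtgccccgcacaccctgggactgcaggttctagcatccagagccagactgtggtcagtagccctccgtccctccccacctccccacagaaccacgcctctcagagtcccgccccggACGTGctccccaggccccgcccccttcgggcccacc
Slc38a2: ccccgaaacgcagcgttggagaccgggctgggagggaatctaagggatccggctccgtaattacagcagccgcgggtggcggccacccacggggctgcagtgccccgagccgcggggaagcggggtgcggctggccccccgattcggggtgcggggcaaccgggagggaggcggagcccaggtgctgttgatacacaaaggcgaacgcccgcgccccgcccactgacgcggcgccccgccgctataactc
Slc3a2: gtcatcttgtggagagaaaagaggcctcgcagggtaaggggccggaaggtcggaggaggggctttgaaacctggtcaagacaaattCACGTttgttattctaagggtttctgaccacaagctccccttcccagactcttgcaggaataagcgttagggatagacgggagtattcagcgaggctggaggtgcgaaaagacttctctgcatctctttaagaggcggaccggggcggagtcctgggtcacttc
Pygm: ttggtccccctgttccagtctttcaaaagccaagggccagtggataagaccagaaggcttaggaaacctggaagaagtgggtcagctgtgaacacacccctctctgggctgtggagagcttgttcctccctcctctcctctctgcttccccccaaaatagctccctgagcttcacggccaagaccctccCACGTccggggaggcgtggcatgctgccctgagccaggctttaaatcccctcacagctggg
Ldha: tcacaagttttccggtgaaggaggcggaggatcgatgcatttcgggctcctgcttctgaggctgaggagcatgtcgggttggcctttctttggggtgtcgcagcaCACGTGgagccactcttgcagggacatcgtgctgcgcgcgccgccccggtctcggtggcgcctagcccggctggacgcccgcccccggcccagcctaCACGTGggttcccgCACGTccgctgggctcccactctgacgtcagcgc
Ldha, whose values did not separate the genotypes, held 2 E-boxes and a further ACGTG. Slc16a1 held 1 E-box, Slc2a1, Slc3a2 and Pygm held ACGTG once each, and Slc38a2 had no match. Of the 31 tested members with an entry in the promoter table, 16 (51.6%) held ACGTG on either strand, against 16.6% of the 27025 genes in the table. By class these were 5 of 8 transporters and 11 of 22 enzymes. CACGTG stood in 5 of the 31 (16.1%), against 6.05% of all genes. TGATGNAA, an element read by ATF4 in the response to amino acid shortage, stood in 0 of the 31, against 3.53% of all genes, and the cAMP response element TGACGTCA in 1 (3.23%), Ldha, against 1.62%. Both strands were searched and 1 window per gene was used. The windows printed were 53.6% (Slc3a2) to 76.4% (Slc16a1) G and C, and base composition was not matched in these shares. The 31 members had all passed the filter on low values, while the 27025 genes were not held to it, so the shares are over unlike sets. A match is a description of letters and shows no binding.

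The values are log2 intensities summarised per probe set by the authors, so levels are compared between arrays and not between genes. Each genotype has only 2 arrays, and this number limits the precision. The median standard error (SE) of a log2 fold change was 0.15 over all genes and over the 35 members. Of the 13782 genes tested, 15 were higher and 4 lower in TACI-/- cells at the threshold, none of them a member. Among the members 5 of 35 (14.3%) had an unadjusted limma p under 0.05, all higher in TACI-/- cells, where 4.94% of all genes were higher and 3.84% lower at that level. They were Pygm, Slc16a1, Slc38a2, Slc2a1 and Slc7a5. The lowest adjusted p of the 5 were 0.0819 for Pygm and 0.0929 for Slc16a1, which ranked 28 and 38 of 13782 genes by p. Pygm and Slc16a1 passed when the variance prior followed intensity (limma adjusted p = 0.0417 for Pygm and 0.0213 for Slc16a1). They also passed when the filter on low values was raised to the 60th percentile (limma adjusted p = 0.0343 and 0.0375), which tested 9203 genes. At that filter Pygm was below the cut on both WT arrays (4.54 and 4.38 log2 units, cuts 4.63 and 4.65). It was tested through its TACI-/- arrays alone, where it was high, so its adjusted p there adds no support.

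**Figure D1:**
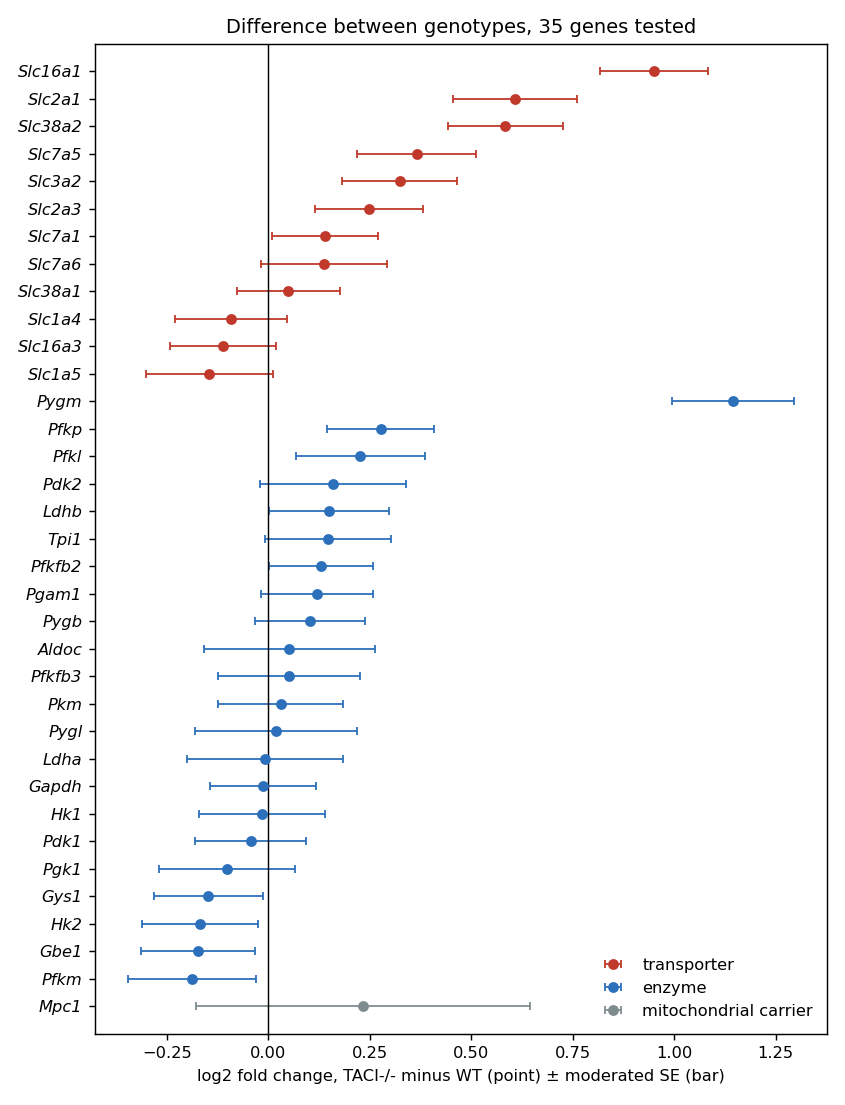
Log2 fold change, TACI-/- minus WT (x axis), of the 35 genes tested, by class. Points are differences of means of 2 arrays each and bars are moderated SE. Slc16a1, Slc2a1, Slc38a2 and Pygm lie furthest to the right, at 0.95, 0.61, 0.58 and 1.14, and the other enzymes lie between -0.19 and 0.28.

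Of the monocarboxylate and glucose transporters, 1 gene of each pair, Slc16a1 and Slc2a1, had an unadjusted p under 0.05. Slc16a1 encodes MCT1, which moves lactate, pyruvate and ketone bodies with protons. It was at 7.06 and 7.06 log2 units on the TACI-/- arrays, against 6.03 and 6.19 on the WT arrays. The nearest arrays of the genotypes were 0.87 log2 units apart, and the replicates of a genotype differed by at most 0.16. The log2 fold change was 0.95 ± 0.13 (SE, limma adjusted p = 0.0929, 95% interval 0.63 to 1.27), exceeded by 0.334% of all genes tested. Slc16a3, which encodes the lactate exporter MCT4, was at 4.22 and 4.10 in TACI-/- cells, against 4.27 and 4.27 in WT cells. Its groups were separated by 0.05 log2 units with TACI-/- lower, and its log2 fold change was -0.11 ± 0.13 (SE).

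Slc2a1 encodes GLUT1, the glucose transporter whose surface level rises when T cells are activated. It was at 7.59 and 7.35 log2 units in TACI-/- cells, against 6.76 and 6.96 in WT cells. Both TACI-/- arrays were higher by at least 0.39, more than either replicate difference (0.23 in TACI-/- and 0.20 in WT). The log2 fold change was 0.61 ± 0.15 (SE, limma adjusted p = 0.327). A dimmer probe set of Slc2a1 was at 3.81 and 3.98 in TACI-/- cells, and on both WT arrays, at 3.41 and 3.56, it was below the filter. Slc2a3, which encodes the high-affinity transporter GLUT3, was at 5.88 and 5.98 in TACI-/- cells, against 5.73 and 5.64 in WT cells. Its groups did not overlap, and its log2 fold change was 0.25 ± 0.13 (SE, limma adjusted p = 0.671).

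Among the 8 amino acid transporters, Slc38a2 had the lowest p. Slc38a2 encodes SNAT2, a sodium-coupled transporter of glutamine and other small neutral amino acids. It was at 9.0 and 8.99 log2 units in TACI-/- cells, against 8.52 and 8.30 in WT cells, which gives 0.58 ± 0.14 as log2 fold change and SE (adjusted p = 0.314, limma). Slc38a1, its neighbour on chromosome 15 and the gene of the related transporter SNAT1, was at 8.07 and 8.08 in TACI-/- cells, against 8.04 and 8.02 in WT cells. Its log2 fold change was 0.05, with a 95% interval from -0.25 to 0.35.

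Slc7a5 and Slc3a2 encode the light chain LAT1 and the heavy chain CD98 of one transporter of leucine and other large neutral amino acids. Slc7a5 was at 6.87 and 6.75 log2 units in TACI-/- cells, against 6.32 and 6.57 in WT cells. Its log2 fold change was 0.37 ± 0.15 (SE, limma adjusted p = 0.568, unadjusted p = 0.0437). Leaving out TACI-/- replicate 1 gave an unadjusted p of 0.156. It was 0.0671 when TACI-/- replicate 2 was left out, 0.227 when WT replicate 1 was, and 0.0379 when WT replicate 2 was. Slc3a2 was at 7.92 and 7.71 in TACI-/- cells, against 7.44 and 7.54 in WT cells, which gives 0.32 ± 0.14 as log2 fold change and SE (adjusted p = 0.585, limma). For both chains the TACI-/- arrays lay above the WT arrays, by 0.18 and 0.17 log2 units at the nearest.

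The other amino acid transporters differed less. Slc7a1, which encodes the arginine and lysine transporter CAT1, was at 6.42 and 6.48 log2 units in TACI-/- cells, against 6.37 and 6.26 in WT cells. Slc7a6, which encodes a second light chain that pairs with CD98, had a log2 fold change of 0.14, and its groups overlapped. Slc1a5 encodes ASCT2, a glutamine transporter that activated T cells depend on for leucine uptake and growth signals. It was at 7.97 and 7.79 in TACI-/- cells, against 8.17 and 7.89 in WT cells, with a log2 fold change of -0.15 ± 0.16 (SE). Its dimmer probe set had -0.06. Slc1a4, which encodes the related transporter ASCT1, was close to the filter on all 4 arrays (3.78 to 4.0) with -0.09. The 95% intervals of Slc7a1, Slc7a6, Slc1a5 and Slc1a4 all included 0.

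**Figure D2:**
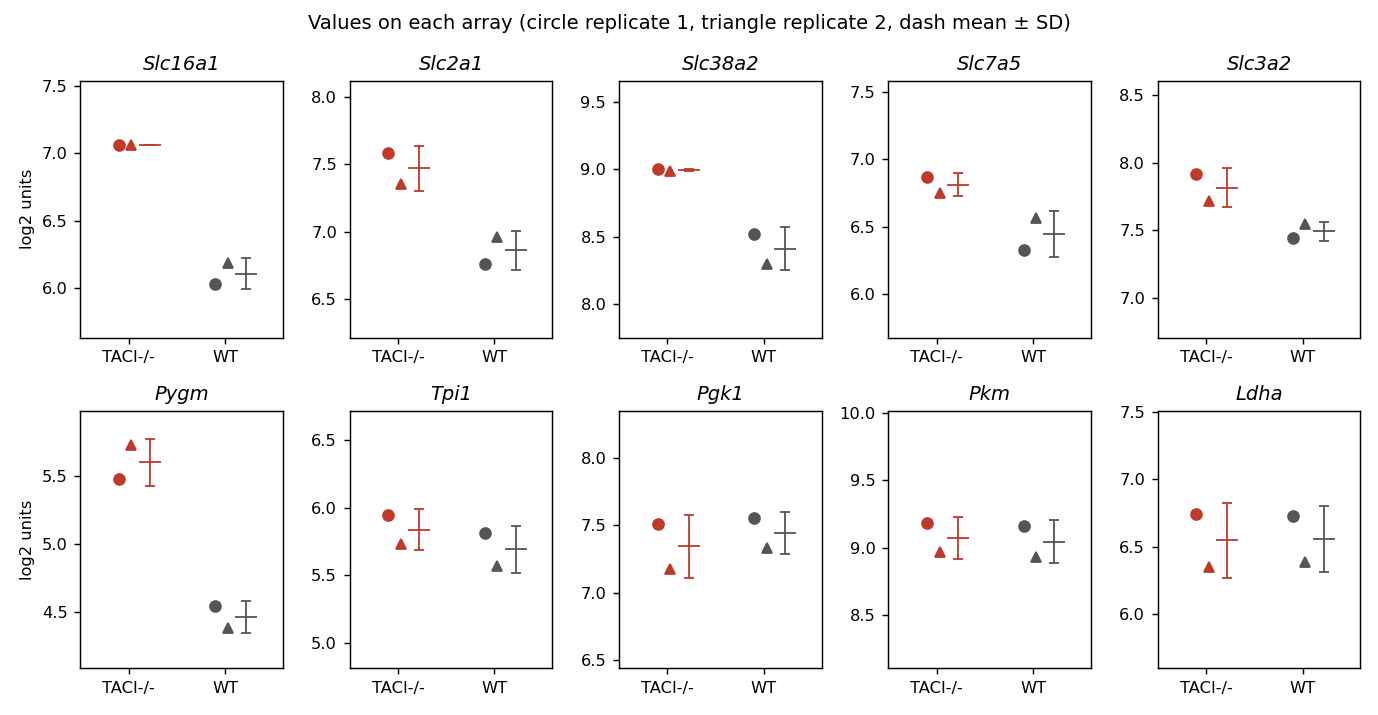
Log2 value on each array for 10 of the genes, TACI-/- in red and WT in grey, with circles for replicate 1, triangles for replicate 2 and dashes for the mean ± SD (n = 2). Each panel spans the same range of log2 units around the gene's own mean. The genotypes separate for the 5 transporters and Pygm, while Pgk1, Pkm and Ldha differ more between replicates than between genotypes.

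Most enzymes, the glycogen enzymes included, differed between genotypes by less than the spread between replicates. For 19 of the 22 enzymes tested the log2 fold change was smaller than the larger difference between replicates of a genotype, which was so for 4 of the 12 transporters and for 73.1% of all genes. Without the 5 glycogen enzymes it was so for 15 of 17. The median log2 fold change was 0.19 for the transporters, 0.04 for the enzymes and 0.01 for all genes tested. Without WT replicate 2 the enzyme median was -0.04. Both TACI-/- arrays lay above both WT arrays in 8 of 12 transporters (66.7%) and 5 of 22 enzymes (22.7%), against 20.5% of all genes. They lay below in 1 transporter and 3 enzymes, against 18.1% of all genes. The difference between the classes was not tested.

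The early enzymes trap and phosphorylate glucose and commit it to glycolysis. Hk1 and Hk2 encode hexokinases, of which Hk2 is the form induced on T cell activation. Hk2 was near the filter, at 3.77 and 3.62 log2 units in TACI-/- cells, against 3.95 and 3.78 in WT cells, with a log2 fold change of -0.17 ± 0.14 (SE). Hk1 had -0.02, with overlapping groups.

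The 3 phosphofructokinase subunit genes had different values. Pfkp, the platelet-type subunit, was at 7.84 and 7.74 in TACI-/- cells, against 7.55 and 7.48 in WT cells (log2 fold change 0.28 ± 0.13, SE, limma adjusted p = 0.619). Pfkl, the liver-type subunit, was at 5.69 and 5.35 in TACI-/- cells, against 5.32 and 5.27 in WT cells (0.23 ± 0.16, SE). In both, the TACI-/- arrays were higher, in Pfkl by 0.03 log2 units at the nearest. Pfkm, the muscle-type subunit, was at 3.48 and 3.80 in TACI-/- cells, against 3.77 and 3.88 in WT cells, and TACI-/- replicate 1 did not reach the filter. Pfkfb2 and Pfkfb3 make and break down fructose 2,6-bisphosphate, the activator of phosphofructokinase. Pfkfb2 was at 5.53 and 5.55 in TACI-/- cells, against 5.45 and 5.37 in WT cells. Pfkfb3 was at 5.25 and 5.54 in TACI-/- cells, against 5.51 and 5.18 in WT cells. Its log2 fold change was 0.05 and its replicates differed by 0.29 and 0.33.

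In the triose part of the pathway, which yields ATP and pyruvate, no tested gene separated the genotypes. Tpi1, triose phosphate isomerase, was at 5.95 and 5.73 log2 units in TACI-/- cells, against 5.81 and 5.57 in WT cells. Pgk1, phosphoglycerate kinase, was at 7.51 and 7.18 in TACI-/- cells, against 7.55 and 7.33 in WT cells. Pkm, pyruvate kinase, was at 9.18 and 8.96 in TACI-/- cells, against 9.16 and 8.93 in WT cells. In these genes replicate 1 was the higher array of each genotype. Aldoc, the brain-type aldolase, was at 3.96 and 4.15 in TACI-/- cells, against 3.71 and 4.29 in WT cells, with WT replicate 1 below the filter.

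Many glycolytic genes have processed copies in the mouse genome that can share probes, so the place of each probe set was checked through the 10 probe sets numbered next to it. For 3 of the 35 members the brightest probe set was numbered among genes of another chromosome. Gapdh, glyceraldehyde phosphate dehydrogenase, is a gene of chromosome 6. Its brightest probe set was numbered among genes of chromosome 11 and its other 2 among those of chromosomes 5 and Y. The brightest was at 10.9 and 10.8 in TACI-/- cells, against 10.9 and 10.9 in WT cells, and the log2 fold changes of the 3 were -0.01, -0.01 and -0.19. Pgam1, phosphoglycerate mutase, lies on chromosome 19, but its brightest probe set was numbered among genes of chromosome 3. That probe set was at 6.5 and 6.35 in TACI-/- cells, against 6.37 and 6.24 in WT cells (log2 fold change 0.12). The one numbered among genes of chromosome 19 had 0.18, with overlapping groups. Levels given for Gapdh and Pgam1 are therefore those of these probe sets, and copies could contribute to them.

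Pyruvate is reduced to lactate by lactate dehydrogenase or enters mitochondria, where pyruvate dehydrogenase kinases hold back its oxidation. Ldha, the subunit that favours lactate and is induced with T cell activation, was at 6.74 and 6.35 log2 units in TACI-/- cells, against 6.73 and 6.38 in WT cells. Its replicates differed by 0.39 and 0.35 while its log2 fold change was -0.01 ± 0.19 (SE, 95% interval -0.47 to 0.45). Ldhb was at 4.79 and 4.56 in TACI-/- cells, against 4.45 and 4.60 in WT cells. Pdk1, a target of HIF1 that keeps pyruvate out of oxidation, was at 8.18 and 8.35 in TACI-/- cells, against 8.30 and 8.31 in WT cells. Pdk2 was at 5.23 and 4.91 in TACI-/- cells, against 4.75 and 5.07 in WT cells. In none of these did the genotypes separate. Mpc1 encodes a subunit of the mitochondrial pyruvate carrier and is a gene of chromosome 17, and its brightest probe set was numbered among genes of chromosome 12. It was at 6.97 and 5.70 in TACI-/- cells, against 5.79 and 6.42 in WT cells, the widest replicate differences of all members. The probe set numbered among genes of chromosome 17 was at 5.30 and 5.31 in TACI-/- cells, against 5.15 and 5.25 in WT cells, a log2 fold change of 0.10.

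Glycogen is stored glucose: glycogen synthase and branching enzyme build it, and phosphorylases release glucose phosphate from it. Pygm, the phosphorylase best known from skeletal muscle, was at 5.48 and 5.73 log2 units in TACI-/- cells, against 4.54 and 4.38 in WT cells. The nearest arrays of the genotypes were 0.94 apart, and replicates differed by 0.25 and 0.17. The log2 fold change was 1.14 ± 0.15 (SE, limma adjusted p = 0.0819, 95% interval 0.78 to 1.51), exceeded by 0.16% of all genes tested. The tested genes next to Pygm on chromosome 19 overlapped between genotypes: Sf1 was at 8.88 and 8.72 in TACI-/- cells, against 8.77 and 8.74 in WT cells, and Rasgrp2 at 7.88 and 7.84 in TACI-/- cells, against 7.83 and 7.86 in WT cells. Of 7 muscle markers, Myh4, Actn3 and Mylpf were below the filter on all 4 arrays. The summed linear signal of the 7 was 87.0 to 106 in TACI-/- cells and 94.0 to 106 in WT cells. Mb (myoglobin) had a log2 fold change of -0.50 and Tnnt3 of 0.40, while Ckm and Acta1 overlapped between genotypes. Mb was below the filter on TACI-/- replicate 2. Tnnt3 was below it on both WT arrays and was tested through its TACI-/- arrays alone.

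The other glycogen enzymes differed by less, and in part the other way. The brain-type phosphorylase gene Pygb was at 6.81 and 6.63 in TACI-/- cells, against 6.63 and 6.60 in WT cells, separated by under 0.01 log2 units. The liver-type gene Pygl was above the filter on 2 arrays only, with a log2 fold change of 0.02. Gys1, glycogen synthase, was at 4.86 and 4.70 in TACI-/- cells, against 4.93 and 4.93 in WT cells. Gbe1, the branching enzyme, was at 5.36 and 5.17 in TACI-/- cells, against 5.38 and 5.50 in WT cells. Gys1 and Gbe1 were lower on both TACI-/- arrays, with log2 fold changes of -0.15 ± 0.13 and -0.17 ± 0.14 (SE), and neither passed the test (limma adjusted p = 0.819 and 0.793).

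**Figure D3:**
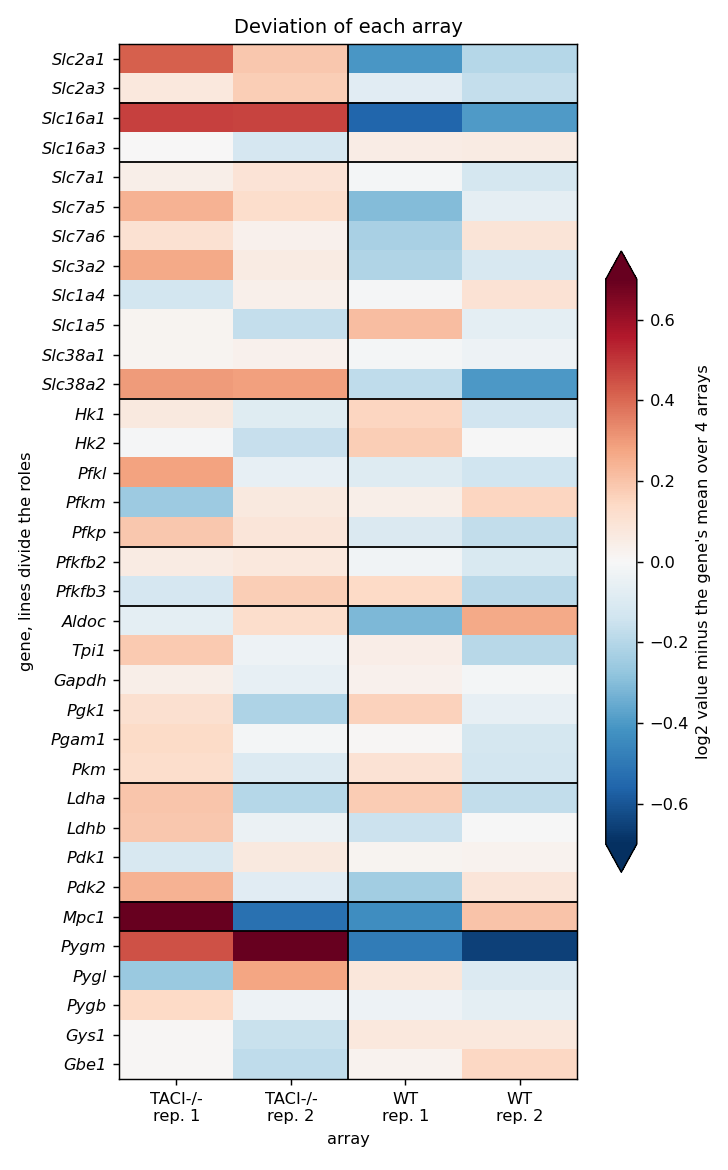
Value of each gene on each array minus that gene's mean over the 4 arrays (colour, log2 units), with genes in rows grouped by role and arrays in columns. Colours reach their limit at 0.7 in either direction. Slc2a1, Slc16a1, Slc38a2 and Pygm change colour between genotypes, and Pgk1, Pkm and Ldha between replicates.

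The arrays of one genotype also differed in the enzyme genes. Replicate 1 was above replicate 2 in both genotypes for 12 of 22 enzymes (54.5%) and 2 of 12 transporters (16.7%), against 28.2% of all genes. The reverse held for 3 enzymes and 1 transporter, against 20.1% of all genes. In the triose part of the pathway 5 of 6 tested genes had replicate 1 higher in both genotypes, with median differences of 0.18 log2 units in TACI-/- cells and 0.18 in WT cells. The median over all genes was 0.05 and 0.00. The labels share the replicate number between genotypes without saying what it stands for, and the source of this difference was not tested.

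**Figure D4:**
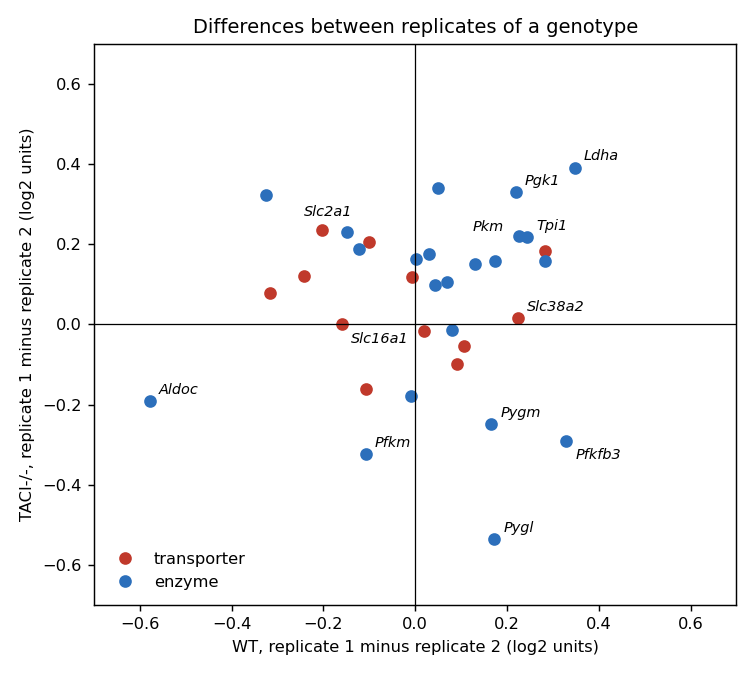
Replicate 1 minus replicate 2 in WT cells (x axis) and in TACI-/- cells (y axis), in log2 units, for the transporter and enzyme genes (Mpc1, at 1.27 in TACI-/- and -0.63 in WT, is off the scale). Ldha, Pgk1, Pkm and Tpi1 lie in the upper right, where replicate 1 is higher in both genotypes, at 0.39, 0.33, 0.22 and 0.22 in TACI-/- cells.

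Other genes of these pathways, from lists that exclude the members, differed little. Of 16 other glycolytic isozymes and regulators tested, 12 other glucose and monocarboxylate transporters, 8 pentose phosphate genes and 8 genes of the pyruvate dehydrogenase complex, none had an unadjusted p under 0.05, where 8.78% of all genes did. Their median log2 fold changes were 0.05, -0.03, -0.03 and 0.02. Those with the lowest p in these lists were Gapdhs (0.22), Pdk3 (0.19), G6pc3 (0.17) and Pgam5 (-0.14), Slc16a6 (-0.16) and Slc16a13 (-0.15), Taldo1 (-0.30) and Prps1 (0.27), and the pyruvate dehydrogenase phosphatase genes Pdp2 (0.25) and Pdp1 (0.23), given as log2 fold changes. Bsg, which encodes basigin, the chaperone that carries MCT1 to the surface, had -0.05 and was named after its value was seen.

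Of 14 other amino acid transporters tested, 1 (7.14%) had an unadjusted limma p under 0.05, near the 8.78% of all genes that did. Slc36a4, a transporter of proline and tryptophan, was at 8.54 and 8.40 log2 units in TACI-/- cells, against 9.24 and 8.92 in WT cells (log2 fold change -0.61 ± 0.16, SE, limma adjusted p = 0.349). The related Slc36a1, a lysosomal amino acid transporter, had -0.26. Of 11 other glycogen genes, Phka2, a regulatory subunit of phosphorylase kinase, was the 1 (9.09%) at that level, again near the share of all genes. It was at 5.85 and 5.8 in TACI-/- cells, against 5.6 and 5.28 in WT cells. Phkb, another subunit of that kinase, and the phosphoglucomutase gene Pgm2 had log2 fold changes of 0.17 and 0.28, with both TACI-/- arrays higher.

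Among 14 HIF1 and hypoxia genes, 2 (14.3%) had an unadjusted p under 0.05, both higher in TACI-/- cells, where 4.94% of all genes were higher and 3.84% lower at that level, and the median log2 fold change was 0.07. Hif1a, the oxygen-regulated subunit of HIF1, was at 7.49 and 7.64 log2 units in TACI-/- cells, against 7.07 and 6.98 in WT cells (0.54 ± 0.13, SE, limma adjusted p = 0.324). Bhlhe40, a transcriptional repressor that hypoxia and T cell activation both induce, had 0.55, Ndrg1 0.33 and Ddit4, an inhibitor of mTORC1, 0.36. Of 27 genes of glucose sensing, mTORC1 and AMPK, 1 was higher and 1 lower at that level (3.70% each way, near those shares). Fnip1, a partner of folliculin in nutrient sensing, had 0.43, and Sesn1, a sestrin that restrains mTORC1, had -0.35. Of 13 amino acid response genes, 1 was higher and 2 lower. Atf4, the transcription factor of that response, had 0.31 and its known target Chac1 0.53, while the targets Trib3 and Asns had -0.60 and -0.39. Chac1 was below the filter on WT replicate 1 and Asns on TACI-/- replicate 2, and Trib3 was at 4.62 and 4.01 on the TACI-/- arrays. No gene of these 3 lists passed over all genes tested.

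Markers of activation and of some other cells also differed between the genotypes. Of 16 early activation genes, 6 (37.5%) were higher in TACI-/- cells at the adjusted threshold, where 0.109% of all genes were. Nr4a3, Irf4, Ctla4 and Dusp5 had log2 fold changes of 2.31, 1.61, 1.57 and 1.88. The list was chosen with earlier results of these data known, so this count is a description and no test of the list. The summed linear signal of that list was 3232 to 3573 in TACI-/- cells and 1516 to 1767 in WT cells. Myc, which drives transporter and glycolytic genes in activated T cells and was named after its value was seen, was at 8.02 and 7.88 log2 units in TACI-/- cells, against 8.10 and 8.20 in WT cells. Regulatory T cell markers summed to 530 and 531 in TACI-/- cells and to 370 and 353 in WT cells, and Ctla4 and Il2ra were in both lists. Ikzf2, Tigit and Foxp3 had log2 fold changes of 0.94, 1.10 and 0.58. Ikzf2, Tigit and Lrrc32 were below the filter on both WT arrays. They were tested through their TACI-/- arrays alone, so the filter fixed their direction. Of the 10 tested genes, these included, 1, Ikzf4, was lower in TACI-/- cells, at -0.04. B cell markers had 4 of 8 tested members at an unadjusted p under 0.05, all higher. At that level 4.94% of all genes were higher. The 4 were Ly86, H2-Aa, Bank1 and H2-Ab1. Neither WT value of Ly86 (3.22 and 3.51 log2 units) reached the filter, and only its high TACI-/- values let it be tested. Ly86 could therefore only count as higher, and it adds no support to the count of 4. Pax5, Cd79a, Cd79b and Cd22 did not have an unadjusted p under 0.05, with log2 fold changes of 0.28, 0.29, 0.35 and 0.03. The B cell list summed to 290 to 363 in TACI-/- cells and 241 to 261 in WT cells. Ms4a1, Blk, Ebf1, Spib and Blnk were below the filter on all 4 arrays. T cell markers summed to 7595 to 8139 in TACI-/- cells and 8337 to 8861 in WT cells. Cd3d, Cd3e, Cd2 and Cd3g had log2 fold changes of -0.30, -0.21, -0.19 and -0.13, all with both TACI-/- arrays below both WT arrays (4 of 8 tested genes, against 18.1% of all genes), and none had an unadjusted p under 0.05. Cd4 overlapped between genotypes, at -0.04. Naive and quiescent T cell genes summed to 8254 to 8273 in TACI-/- cells and 8201 to 8380 in WT cells. In that list both TACI-/- arrays lay above both WT arrays for 6 of 11 tested genes (54.5%), against 20.5% of all genes. They lay below for 2 (18.2%), near the 18.1% of all genes. The genes with the lowest p were Tob1 (0.74), Il7r (-0.48), Dapl1 (-0.51) and Foxo1 (0.23), given as log2 fold changes. The CD8 and NK list was at 333 to 353 in TACI-/- cells and 363 to 396 in WT cells. In it Klrd1 was at -0.87, Eomes at 0.79 and Cd8b1 at -0.65. The myeloid and dendritic list was at 260 to 283 in TACI-/- cells and 249 to 280 in WT cells. In it Cd68 was at 0.71, Lyz2 at -0.49 and Ly6c2 at -0.41. Of 10 erythrocyte and platelet markers only 4 had a probe set, and these summed to 67.0 to 77.4 in TACI-/- cells and 63.4 to 68.9 in WT cells. The 3 tested were the platelet genes Itga2b, Ppbp and Gp9, at log2 fold changes of 0.45, 0.15 and -0.15. No erythrocyte gene was tested. The part of the cells marked by these lists in the transporter values was not tested. In sorted bulk cells, a few cells with much of a transcript and a small difference in every cell cannot be told apart.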

How the data were processed

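RNA of sorted cells was hybridised to Affymetrix Mouse Gene 2.0 ST arrays, 1 per sample, per the labels' protocols. The deposited table held 41345 log2 values per array. The submitters' processing notes name RMA and Partek without versions or roles, and base 2 is inferred from RMA's usual output, with values spanning 0.944 to 13.2. RMA subtracts background, equalises the arrays' distributions and summarises probes, which can mask a shift shared by most genes. Of these probe sets 23521 carried 1 gene symbol in the platform annotation and were used. Where a gene had several, the one with the highest mean was taken.

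TACI-/- minus WT was tested in R 4.3.3 by limma 3.58.1 (lmFit, then eBayes, two-sided, no covariate, Benjamini-Hochberg over 13782 genes). Titles number the replicates and call them biological. Where they were not separate animals, p-values measure only the spread between these samples. The fit was run on simulated data with independent noise as a check of the code. Its recovery of changes of the members' size is not reported here. The 18 gene lists, beside the members, were written for this comparison. The members and lists were chosen with earlier results of these data known. Array values were given for members at an unadjusted p under 0.05 and for those of each role with the lowest p, and up to 4 genes per other list were named by p. Any further gene was picked with its values in view. The alternatives were 13 planned ones and 1 added after seeing the data, the probe set numbered among genes of the gene's own chromosome.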

Additional observations from a re-analysis of the deposited data

How the results depend on the processing

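The number of arrays, 2 per genotype, limits the precision, and arrays give no depth to set a bound on dim probe sets. The 5 members with the lowest p kept their direction in all 14 alternatives. The count of genes past adjusted p 0.05 (19) was 3 with no low-value filter, which tested 22180 genes, 45 with the 60th percentile filter, 46 with an intensity trend in the prior, 12 with quantile normalization again and 0 in limma with no variance moderation (986 at an unadjusted p under 0.05). It was 0 to 0 when 1 array was left out, with fewer samples (721 to 1145 at an unadjusted p under 0.05). Of the members, 2 passed with the 60th percentile filter and 2 with the intensity trend, and 0 otherwise. Between 4 and 7 members had an unadjusted p under 0.05 (5 in the comparison reported), 4 to 6 without 1 array. With the 60th percentile filter Pygm was tested through its TACI-/- arrays alone. The transporter median log2 fold change (0.19) was 0.29 with the 60th percentile filter, 0.17 with quantile normalization again and 0.19 to 0.25 without 1 array. With the 60th percentile filter Slc16a3 and Slc1a4 (log2 fold changes -0.11 and -0.09) dropped out, and the values of the other transporters did not change. The enzyme median (0.04) was -0.04 to 0.11 without 1 array. Among 482 single-gene values under alternatives, 23 took the other sign, all of genes with an unadjusted p of 0.05 or more, and 22 of them without 1 array. The cause of these changes was not tested where fewer genes or samples do not account for it. The replicate numbers are not stated to pair the samples, and the replicate differences of the genotypes correlated at -0.03 across genes. With the replicate number as a block, 13 genes, 0 members and 4 members at an unadjusted p under 0.05 were counted. Slc7a5 then had an unadjusted limma p of 0.0618.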
